A study of Mus musculus with 8 samples.

Results

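The genes described here are 9 genes that are widely used as markers of tubular injury and repair in the kidney: Havcr1, Lcn2, Vcam1, Spp1, Krt20, Clu, Sox9, Cdkn1a and Myc. They were chosen by symbol, and each matched 1 of the 32285 features of single-nucleus RNA-seq data from 8 mouse kidneys. The rule itself used no measured value, but the genes were chosen with earlier results of these data known. It asked for the level and the share of positive nuclei of each gene by cell type, genotype and time point.

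All mice were male C57BL/6J mice that carried Bmal1 lox/lox, that is, alleles of the clock gene Bmal1 (Arntl) flanked by lox sites. Ctrl mice carried nothing further. Their cKOt littermates were Bmal1 lox/lox/Pax8-rtTA/LC-1, so that doxycycline induces Cre recombinase in cells with an active Pax8 promoter, which in the kidney are the tubular cells. Both genotypes drank doxycycline at 2 mg/ml, with sucrose at 20 mg/ml, for 2 weeks from the age of 8 weeks, and were sacrificed at 14 weeks. They lived in 12 h of light and 12 h of dark, and kidneys were collected at zeitgeber time 4 (ZT4, light) or 16 (ZT16, dark), from 2 mice for each genotype and time point. No group was injured on purpose: the comparisons ask whether injury and repair genes differ between kidneys with and without a tubular clock, and between times of day. The deletion acts in tubules alone, so vessels, pericytes and immune cells of cKOt mice keep their own clock. Where 8 values are listed, they stand in the order of 2 Ctrl libraries at ZT4, 2 cKOt at ZT4, 2 Ctrl at ZT16 and 2 cKOt at ZT16.

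When tubular epithelium is damaged, surviving cells flatten, lose transporters and switch on a set of genes that are silent or low in the healthy tubule. Havcr1 encodes KIM-1, a receptor for dead cells, and Lcn2 encodes NGAL, a protein that binds iron-carrying siderophores. Krt20 is a keratin of urothelium that injured tubules also make. Sox9 is a transcription factor of tubular repair, and Myc is a transcription factor that drives growth. Cdkn1a encodes p21, an inhibitor of cyclin-dependent kinases that p53 induces and that holds cells before division. Vcam1, an adhesion molecule of activated endothelium, marks proximal tubule cells that fail to recover. Spp1 (osteopontin) and Clu (clusterin) are secreted proteins, the one a ligand of integrins and CD44 and the other a chaperone outside the cell.

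Cdkn1a and Spp1 were the members whose tests passed in thick ascending limb nuclei, so the 250 bases before each of their RefSeq start sites (GRCm38.p6, plus strand) are shown. RefSeq promoters were found for 5 of the 9 members (Havcr1, Lcn2, Krt20, Spp1 and Cdkn1a), with 9 start sites. Capitals mark p53 half-sites in the first sequence and CANNTG, the E-box core, in the other 3. The 1st and 2nd start sites of Cdkn1a lie at chr17:29090729-29090978 and chr17:29093519-29093768, and those of Spp1 at chr5:104434861-104435110 and chr5:104435942-104436191.
Cdkn1a start site 1: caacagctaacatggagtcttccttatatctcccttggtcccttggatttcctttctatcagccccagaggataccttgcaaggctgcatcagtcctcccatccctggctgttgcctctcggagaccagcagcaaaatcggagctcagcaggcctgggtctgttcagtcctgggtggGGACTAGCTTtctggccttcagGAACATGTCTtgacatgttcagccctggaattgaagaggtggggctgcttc
Cdkn1a start site 2: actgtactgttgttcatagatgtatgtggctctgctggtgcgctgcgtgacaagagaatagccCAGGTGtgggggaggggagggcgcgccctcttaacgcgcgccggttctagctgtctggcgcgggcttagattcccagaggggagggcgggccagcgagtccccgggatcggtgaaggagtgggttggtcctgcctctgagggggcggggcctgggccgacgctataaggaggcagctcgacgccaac
Spp1 start site 1: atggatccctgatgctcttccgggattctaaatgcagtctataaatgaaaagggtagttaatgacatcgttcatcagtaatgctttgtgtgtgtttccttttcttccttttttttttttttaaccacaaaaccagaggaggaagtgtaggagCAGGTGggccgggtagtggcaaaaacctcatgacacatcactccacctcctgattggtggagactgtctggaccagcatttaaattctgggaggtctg
Spp1 start site 2: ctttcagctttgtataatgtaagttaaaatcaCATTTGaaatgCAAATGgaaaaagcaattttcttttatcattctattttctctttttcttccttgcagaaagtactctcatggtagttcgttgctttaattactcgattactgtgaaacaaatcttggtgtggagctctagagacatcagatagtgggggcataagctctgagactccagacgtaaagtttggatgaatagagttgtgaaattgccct

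Both strands were searched, and any overlap between motifs was allowed. CACGTG, the E-box that BMAL1 with its partner binds, was in 0 of the 9 promoters and in 6.02% of all 32851 promoters of the same length. CANNTG, which includes CACGTG, was in 5 of 9 and in 66.2% of all. A p53 half-site was in 1 of 9, start site 1 of Cdkn1a, where 2 matches begin at positions 178 and 200 of the window, and in 7.13% of all. These motifs were chosen with results of these data known, and a match is a run of letters, not a site shown to be used.

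The 8 libraries held 81391 nuclei after filtering, 8758 to 10975 in each, with 36548873 to 54500820 UMIs (unique molecular identifiers, 1 for each captured transcript) in a library and a median of 3003.5 to 4830 UMIs in a nucleus. Of 80565 distinct barcodes, 823 occurred in more than 1 library, 18 to 42 in a pair of libraries. Clusters were named by marker genes and are called by these names with the ending "-like", and 19 of the 21 types had at least 10 nuclei in every library and were compared. Arntl stood at 39.3, 33.2, 289, 203, 161, 158, 295 and 258 CPM (counts scaled to 1 common total of mRNA UMIs in every library). These counts cover the whole gene, not the part between the lox sites, and so check neither the deletion nor the labels. Nuclei of 4064 barcodes stayed unnamed.

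Across all nuclei the members ranged from rare to common. Spp1 was found in 19069 nuclei (23.4%) with 48421 UMIs, Clu in 3361 (4.13%) with 5082 UMIs and Vcam1 in 2303 (2.83%) with 3308 UMIs. Cdkn1a was found in 1136 nuclei (1.40%, 1286 UMIs) and Myc in 917 (1.13%, 997 UMIs). The remaining 4 were at the edge of detection: Lcn2 in 214 nuclei (0.263%, 246 UMIs), Sox9 in 208 (0.256%, 238 UMIs), Havcr1 in 159 (0.195%, 180 UMIs) and Krt20 in 22 (0.0270%, 32 UMIs). At this depth a gene such as Krt20 can be placed in a cell type, but a difference between groups could not be tested. The test needed at least 5 UMIs in both libraries of a compared group, and of the 19 cell types Spp1 passed it in 19, Clu in 14, Cdkn1a in 7, Vcam1 in 6, Myc in 4, Lcn2 and Sox9 in 2 each, Havcr1 in 1 and Krt20 in 0. Krt20 was also untested over all nuclei. By mean level Spp1, Krt20 and Cdkn1a were highest in urothelium, Vcam1 in endothelium, Clu and Sox9 in distal convoluted tubule and Lcn2 in medullary collecting duct. Havcr1 was highest in connecting tubule, and Myc in urothelium, or in myeloid cells with doublets removed or with 50 principal components. For Spp1 the libraries of the leading type lay above those of the next, while for the other 8 members these ranges overlapped, so that their order is not set.

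**Figure D1:**
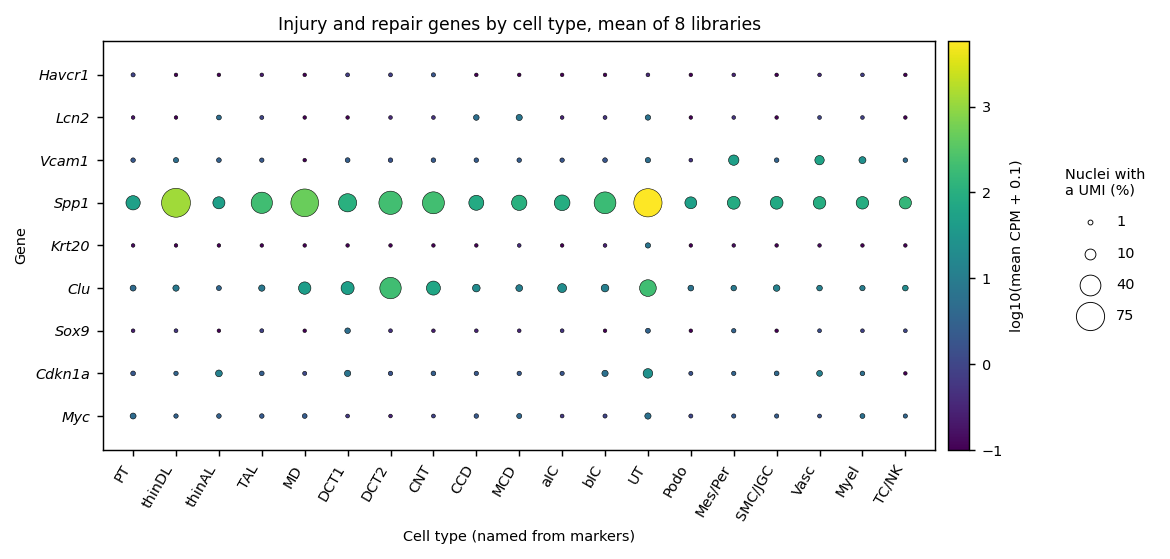
Mean level of each of the 9 genes (rows) in the 19 compared cell types (columns), in CPM of mRNA UMIs over 8 libraries. Spp1 is highest in urothelium-like (UT) nuclei with 5837 CPM, Vcam1 in endothelium-like (Vasc) nuclei with 58.4 CPM, and Havcr1 stays at 1.67 CPM or below in every type.

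Havcr1, the classical proximal tubule injury marker, was close to absent. In proximal tubule-like (PT-like) nuclei it stood at 0.567, 1.32, 0.630, 1.37, 0.935, 0.399, 0.226 and 1.06 CPM, a mean of 0.813 ± 0.423 (SD, n = 8 libraries) that rests on 119 UMIs in 106 of 26107 nuclei. The mean share of PT-like nuclei with a Havcr1 UMI was 0.411%, at a median of 5818 UMIs, against 6 of 12681 (0.0473%) among Vasc-like nuclei, at a median of 2079 UMIs. With every nucleus thinned to 1000 UMIs the pooled shares were 0.0576% and 0.00819%. Thinned shares of 0.112% to 0.165% in early (DCT1-like) and late distal convoluted tubule (DCT2-like), myeloid-like and urothelium-like (UT-like) nuclei were higher, but they rest on nuclei with a UMI numbering 6, 5, 2 and 1 before thinning. The highest mean, 1.67 ± 2.65 CPM in connecting tubule-like (CNT-like) nuclei, rests on 8 UMIs in 6 of 1357 nuclei, and 4 of the 8 libraries had none. Ctrl and cKOt libraries overlapped in both cell types. Within PT-like nuclei, clusters 14 and 21 held the most, with 2.69 and 3.45 CPM. Cluster 14 came mostly from cKOt libraries and cluster 21 mostly from Ctrl libraries.

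Over all nuclei Havcr1 was 0.499, 0.747, 0.649, 1.21, 0.465, 0.271, 0.234 and 0.512 CPM, so the ZT4 libraries were mostly but not always above those at ZT16. The difference of ZT16 from ZT4, as the mean of both genotypes, was -1.04 ± 0.36 on the log2 scale (SE), with an adjusted p of 0.250 (edgeR's quasi-likelihood test, Benjamini-Hochberg over all mRNAs tested), which did not pass the limit of 0.05.

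Lcn2 was found in the collecting system and urothelium rather than in the proximal tubule. In medullary collecting duct-like (MCD-like) nuclei it was 1.09, 8.40, 7.39, 0.942, 15.5, 5.34, 15.8 and 3.96 CPM (mean 7.31 ± 5.80, 52 UMIs). Replicates of 1 group differed by several times, and Ctrl and cKOt libraries overlapped at both times. UT-like nuclei had 0, 2.05, 2.12, 10.0, 9.14, 10.5, 8.14 and 8.29 CPM (mean 6.29 ± 4.18), cortical collecting duct-like (CCD-like) nuclei 5.22 ± 3.44 and thin ascending limb-like (thinAL-like) nuclei 4.72 ± 3.52. Since their ranges overlap, the order of these 4 types is not set. PT-like nuclei held 13 Lcn2 UMIs in 12 of 26107 nuclei (mean 0.0897 CPM). Outside tubules Lcn2 reached 47.7 CPM in Vasc-like cluster 45, 112 nuclei led by Ccl21a, Mmrn1 and Stab2, which are genes of lymphatic endothelium.

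Krt20 was mostly urothelial. UT-like nuclei held 21 of its 32 UMIs, in 11 nuclei, at 0, 2.05, 25.4, 2.01, 0, 5.27, 20.3 and 0 CPM. Of these libraries 3 had none and the highest came from cKOt mice at both times, beside a cKOt library at each time with 2.01 and 0. PT-like nuclei had 5 Krt20 UMIs, and thick ascending limb-like (TAL-like) nuclei 0 in 10126 nuclei. The 3 mRNAs whose mean log2(CPM + 1) across the 19 cell types was most like that of Krt20 were Cldn23 (Pearson's r = 0.992), Trim29 (0.991) and Msln (0.991), all highest in UT-like nuclei. Correlations of this kind describe the same 8 libraries and are carried by the 1 type in which the gene is found.

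**Figure D2:**
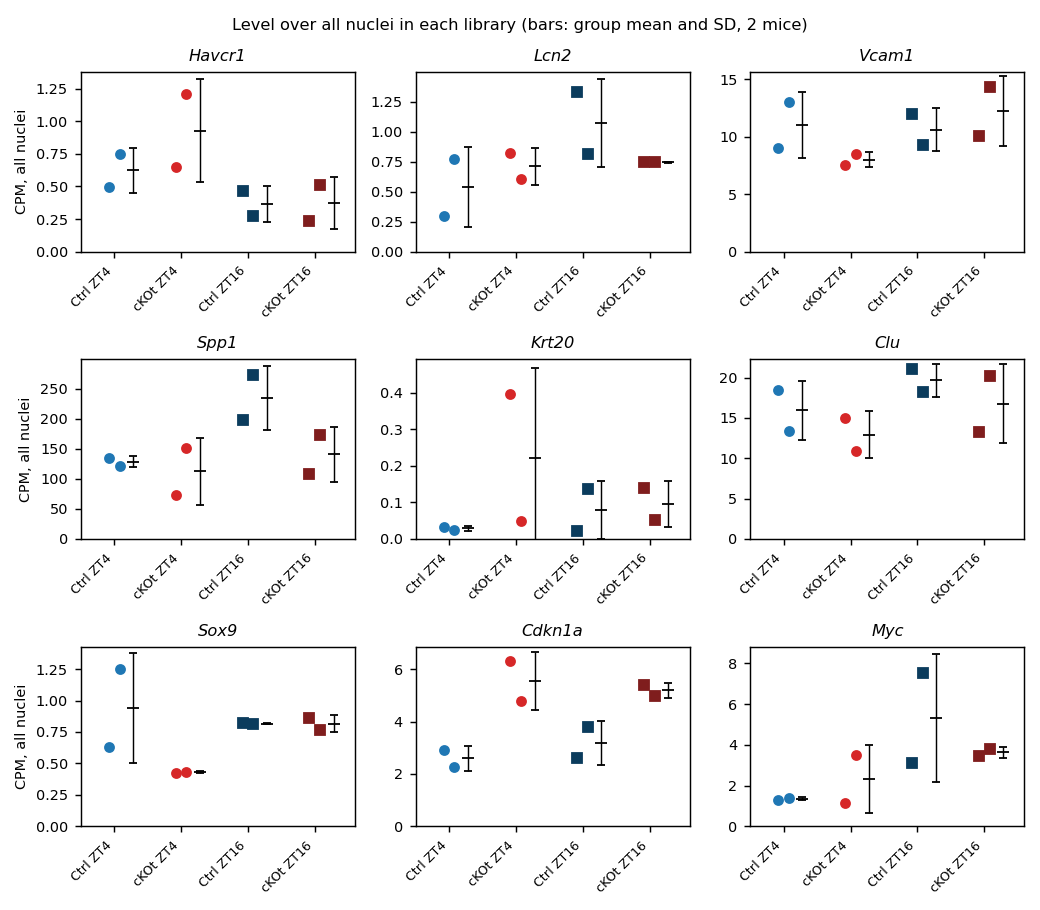
Level of each gene in CPM over all nuclei of a library, 1 point a library and 2 a group, with bars for the mean and SD of a group. The 4 Cdkn1a values of cKOt libraries (4.77 to 6.32) all lie above the 4 of Ctrl libraries (2.27 to 3.79), while the genotypes overlap, over both times, in the other genes.

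Vcam1 was a gene of vessels and of the cells around them. Vasc-like nuclei had 49.7, 73.6, 60.1, 54.7, 56.1, 46.6, 60.4 and 66.4 CPM (mean 58.4 ± 8.75, 7.20% of nuclei), with little spread between libraries. It was not even within the endothelium. Cluster 46, which has 80 nuclei and is led by Myrip, Vwf and Eln, had 337 CPM, cluster 3 had 113 CPM and cluster 0, the largest, had 17.9 CPM. Myeloid-like (Myel-like) nuclei had 37.5, 24.3, 17.8, 8.48, 23.3, 42.4, 19.9 and 15.6 CPM (mean 23.6 ± 11.3), with all 4 cKOt libraries below all 4 Ctrl libraries, an order that 1.65% of all mRNAs tested in the 19 types showed, and a mean genotype difference of -1.0 ± 0.39 (log2, SE) that did not pass (edgeR adjusted p = 0.866). In PT-like nuclei, where Vcam1 would mark failed repair, the level was 1.77, 1.98, 1.66, 2.45, 1.82, 1.33, 1.04 and 2.58 CPM (mean 1.83 ± 0.518), with UMIs in 0.763% of nuclei. Ctrl and cKOt overlapped there. PT-like cluster 4, with 2834 nuclei, had 6.34 CPM of Vcam1 (0.917% of nuclei), against 1.07 CPM (0.535%) in cluster 5 and 1.58 CPM (0.716%) in cluster 8. Cluster 4 held 30.1% of PT-like nuclei in cKOt ZT4 replicate 1 and 2.68% to 13.0% in the other libraries. Pooled, the other members but Havcr1 and Myc were also higher there than over all PT-like nuclei, Spp1 with 92.9 against 47.5 CPM. These differences between clusters were not tested. The share of podocyte-like (Podo-like) nuclei with a Vcam1 UMI was 0.196%, 1 of 510, at a median of 3738 UMIs. The genes most like Vcam1 across cell types were Cd40 (r = 0.911), Kcnk6 (0.908) and Ube2l6 (0.907).

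In mesangial and pericyte-like (Mes/Per-like) nuclei Vcam1 differed between times. It was 36.6 and 48.4 CPM in Ctrl and 23.4 and 25.9 CPM in cKOt at ZT4, and 61.1 and 44.3 CPM in Ctrl and 63.2 and 79.7 CPM in cKOt at ZT16. Both cKOt libraries at ZT4 were below all others and the 2 Ctrl groups overlapped. Within cKOt Vcam1 rose by 1.53 ± 0.22 (log2, SE) from ZT4 to ZT16 (edgeR adjusted p = 0.0229), in a comparison in which 0.289% of the mRNAs tested in these nuclei passed. As the mean of both genotypes it rose by 0.89 ± 0.15 (adjusted p = 0.0244, where 0.71% of mRNAs passed). Within Ctrl the difference was 0.25 ± 0.21 (adjusted p = 0.874), and the interaction of genotype and time, 1.29 ± 0.31, had an adjusted p of 0.369, so the rise is not shown to differ between genotypes. The genotype difference was -0.82 at ZT4 (adjusted p = 0.331) and 0.46 at ZT16 (adjusted p = 1.00).

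Most of this Vcam1 came from Mes/Per-like cluster 2 with 78.2 CPM, against 11.8 and 2.68 CPM in clusters 7 and 27. The share of cluster 2 among Mes/Per-like nuclei was 58.0% in Ctrl and 46.4% in cKOt at ZT4, and 50.5% and 62.7% at ZT16, so it was highest and lowest in the same groups as Vcam1. Within cluster 2 alone the values were 56.2, 61.4, 35.7, 49.7, 102, 72.9, 90.0 and 119 CPM, so all 4 libraries at ZT16 lay above all 4 at ZT4. Cluster 2 was picked for its Vcam1 in these same data. How many mRNAs show this order within it was not counted, and the difference there was not tested. In the same nuclei of cKOt the summed Mes/Per markers went from 3166 and 3250 CPM at ZT4 to 4483 and 4125 CPM at ZT16, and the macula densa markers from 1761 and 1594 to 2289 and 2594 CPM. Those of Vasc (925 and 1176 to 827 and 909 CPM), thin descending limb (216 and 203 to 109 and 107 CPM) and MCD (293 and 256 to 126 and 140 CPM) were lower at ZT16, as were those of adipocytes (3.75 and 26.7 to 0.338 and 0.661 CPM), PCT, the straight proximal tubule and CCD. Over both genotypes all of these overlapped between the times. The part that the make-up of the class and these markers have in the result was not tested. The call within cKOt was lost on leaving out cKOt ZT4 replicate 2, cKOt ZT16 replicate 1 or cKOt ZT16 replicate 2 (range 1.34 to 1.70), and that of the mean on leaving out any of Ctrl ZT4 replicate 1, cKOt ZT4 replicate 2, Ctrl ZT16 replicate 1 and both cKOt libraries at ZT16 (0.78 to 1.01).

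Spp1 was the most common member and was led by the urothelium. UT-like nuclei had 3603, 2968, 2071, 4885, 7653, 12267, 6648 and 6605 CPM (mean 5837 ± 3256, 75.1% of nuclei), and, with 825 nuclei, gave 37.4% of all Spp1 UMIs. Thin descending limb-like (thinDL-like) nuclei had 1432, 1368, 419, 1276, 1073, 1934, 1054 and 1243 CPM (mean 1225 ± 426, 78.6% of nuclei), and every library of UT-like nuclei was above every one of these. Macula densa-like (MD-like) nuclei followed with 474 ± 131 CPM, CNT-like nuclei with 214 ± 42.8 CPM and TAL-like nuclei with 205 ± 64.1 CPM. The MD-like range did not overlap that of CNT-like nuclei, while CNT-like and TAL-like values overlapped. In PT-like nuclei Spp1 was 48.4 ± 16.8 CPM and 18.3% of nuclei had a UMI, beside 12.7% in Podo-like nuclei (median 3738 UMIs) and 14.2% in Vasc-like nuclei (median 2079 UMIs), types not known for making it. Thinned to 1000 UMIs these shares were 4.24%, 2.96% and 7.73%, so the share in PT-like nuclei lay between those of these types, and what part of the 3 shares is free RNA was not tested. The share of TAL-like nuclei was 42.0% unthinned and 14.7% thinned.

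Between genotypes Spp1 fell in TAL-like nuclei. Its level there was 217 and 220 CPM in Ctrl and 95.6 and 154 CPM in cKOt at ZT4, and 293 and 275 CPM in Ctrl and 171 and 216 CPM in cKOt at ZT16. All 4 cKOt libraries were below all 4 Ctrl libraries, with 216 against 217 CPM at the closest. This order was shown by 1.65% of all mRNAs tested in the 19 types. The mean genotype difference was -0.68 ± 0.13 (log2, SE, edgeR adjusted p = 0.0181), and 0.927% of the mRNAs tested in TAL-like nuclei passed in this comparison. The summed markers of the proximal convoluted tubule (PCT) in these nuclei were 514 to 649 CPM in Ctrl and 653 to 735 CPM in cKOt, and their part in the result was not tested. Spp1 also rose from ZT4 to ZT16, by 0.51 ± 0.13 (adjusted p = 0.0411), in a comparison that 3.6% of mRNAs passed. The 4 summed DCT1 markers of the same nuclei moved with time too, from 9222 to 10428 CPM at ZT4 to 5962 to 6658 CPM at ZT16 (-0.65 on the log2 scale, without overlap). They include Egf, which the thick ascending limb also makes, and their part in the time differences of TAL-like nuclei was not tested. The range without each library in turn was -0.89 to -0.53 for genotype, where the call was lost without Ctrl ZT4 replicate 2, cKOt ZT4 replicate 1 or cKOt ZT16 replicate 1. For time it was 0.37 to 0.72, and the call was kept only without cKOt ZT4 replicate 2 or cKOt ZT16 replicate 1.

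Estimates of the same sign stood in other cell types, none past the limit. The mean genotype difference of Spp1 was -0.60 in DCT1-like nuclei of the early distal convoluted tubule (adjusted p = 0.202), -0.57 in DCT2-like nuclei of its late part (0.178), -0.54 in thinDL-like nuclei (0.283) and -0.43 over all nuclei (0.633). In Vasc-like nuclei the same difference was -0.34 ± 0.23, and in Podo-like nuclei it was 0.09 ± 0.43. The time difference was 0.53 ± 0.23 in Vasc-like nuclei and 1.52 ± 0.43 in Podo-like nuclei, close to or above the 0.51 of TAL-like nuclei, and the part that free RNA has in these results was not tested. In UT-like nuclei Spp1 at ZT16 exceeded ZT4 by 1.27 ± 0.23 with an adjusted p of 0.0642. Adam28 (r = 0.793), Bsg (0.777) and Tmprss11f (0.752) had the levels most like those of Spp1 across cell types.

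Clu was a gene of the distal nephron and the urothelium. DCT2-like nuclei had 207, 210, 166, 101, 315, 224, 147 and 210 CPM (mean 197 ± 62.9, 42.6% of nuclei), CNT-like nuclei 67.0 ± 14.6 CPM and DCT1-like nuclei 47.2 ± 10.5 CPM. UT-like nuclei had about the same mean as DCT2-like nuclei with a wider spread (197 ± 106 CPM), so the order of these types is not set. TAL-like and PT-like nuclei held little, 8.10 ± 1.35 and 4.37 ± 0.701 CPM, and Podo-like nuclei had a Clu UMI in 1.96% of nuclei beside 2.14% in PT-like nuclei. Thinned to 1000 UMIs the shares were 0.198% in Podo-like nuclei (0.588% is the share that a count of 0 allows there), 0.334% in PT-like nuclei and 0.860% in Vasc-like nuclei, and what part of these shares is free RNA was not tested. In DCT2-like nuclei the genotype difference was -0.64 ± 0.15 with an adjusted p of 0.0730, which missed the limit. Across cell types Clu was most like Sh3rf3 (r = 0.834), Tmprss4 (0.813) and Cadps2 (0.782).

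In UT-like nuclei Clu rose at ZT16. The values were 124 and 63.4 CPM in Ctrl and 142 and 112 CPM in cKOt at ZT4, and 288 and 237 CPM in Ctrl and 228 and 384 CPM in cKOt at ZT16. All 4 libraries at ZT16 lay above all 4 at ZT4, an order that 2.7% of all mRNAs tested in the 19 types showed. The mean time difference was 1.41 ± 0.23 (log2, SE, edgeR adjusted p = 0.0312), and it was 1 of 5 of the 9857 mRNAs tested there that passed (0.0507%). These sums come from 45 to 137 nuclei in a library. The call was lost without Ctrl ZT4 replicate 2, cKOt ZT4 replicate 1, cKOt ZT4 replicate 2 or cKOt ZT16 replicate 2 (range 1.17 to 1.68). Summed markers of other cell types overlapped between the times in UT-like nuclei, and those of DCT2 were 4112 CPM in Ctrl ZT4 replicate 1 and 545 to 1264 CPM in the others.

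**Figure D3:**
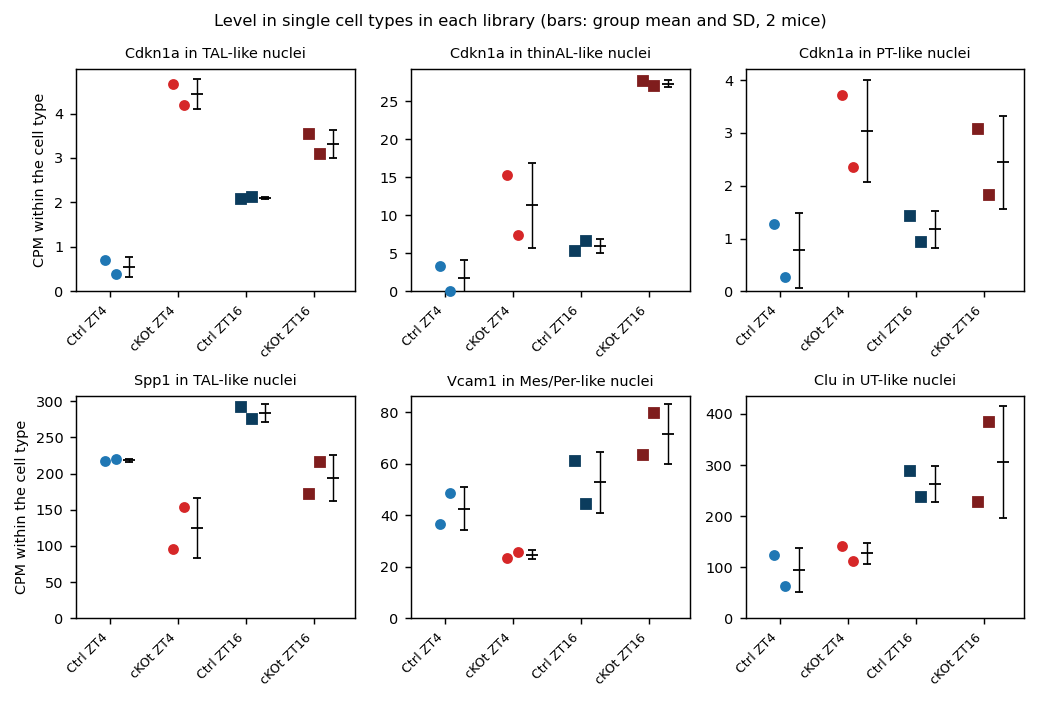
Level in CPM by library for the gene and cell type pairs with a difference that passed the test, and for Cdkn1a in PT-like and thinAL-like nuclei, which missed it, 1 point a library with bars for the mean and SD of a group. Cdkn1a in TAL-like nuclei is 3.09 to 4.67 in cKOt and 0.390 to 2.12 in Ctrl, without overlap.

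Sox9 was rare in every tubular type. DCT1-like nuclei had the highest mean, with 5.19, 10.9, 1.87, 0, 7.18, 7.25, 4.62 and 3.53 CPM (5.07 ± 3.42, 53 UMIs). The 4 cKOt libraries (0 to 4.62) were all below the 4 Ctrl libraries (5.19 to 10.9), the order that 1.65% of all mRNAs tested by cell type showed, and the mean genotype difference of -1.93 ± 0.55 had an adjusted p of 0.183. UT-like nuclei had 3.18 ± 2.86 CPM and Mes/Per-like nuclei 4.07, 4.10, 1.41, 0.834, 3.63, 3.93, 4.05 and 1.98 CPM (mean 3.0 ± 1.36, 71 UMIs), where the difference was -1.08 (adjusted p = 0.809). PT-like nuclei, in which Sox9 is induced during repair, had 0.150 ± 0.0480 CPM from 22 UMIs in 20 nuclei. Over all nuclei Sox9 at ZT4 was 0.632 and 1.25 CPM in Ctrl and 0.423 and 0.434 CPM in cKOt (-1.13 ± 0.40, adjusted p = 0.382). Across cell types Adamtsl3 (r = 0.794), Msmo1 (0.744) and Adora2b (0.740) were most like Sox9.

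PT-like nuclei held most of the Myc UMIs, 612 (61.4%), a part close to that of Havcr1 (66.1%). PT-like nuclei are the most numerous, and for their mRNA UMIs the excess was smaller. Pooled Myc was 4.23 CPM in them and 3.19 CPM over all nuclei, and pooled Havcr1 was 0.822 and 0.576 CPM. The level there was 1.49, 1.10, 1.03, 4.21, 3.94, 13.2, 4.47 and 5.28 CPM (mean 4.33 ± 3.94). Of the ZT4 libraries only cKOt replicate 2 was within the range of those at ZT16, and Ctrl ZT16 replicate 2 stood far above the rest. The mean time difference was 1.82 ± 0.50 with an adjusted p of 0.167, and over all nuclei it was 1.31 ± 0.38 (adjusted p = 0.173). DESeq2 called both. The PT-like cluster with the most Myc, cluster 13 with 9.85 CPM, came mainly from Ctrl ZT4 replicate 1 and Ctrl ZT16 replicate 2. UT-like nuclei (5.70 ± 6.83 CPM), Myel-like nuclei (5.4 ± 5.45 CPM) and MCD-like nuclei (3.73 ± 2.69 CPM) had means that the spread between libraries does not separate from that of PT-like nuclei. Most like Myc were 1700017B05Rik (r = 0.853), Fuca1 (0.823) and Gm10130 (0.814).

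Over all nuclei Cdkn1a was the only member whose genotypes did not overlap. It was 2.93 and 2.27 CPM in Ctrl and 6.32 and 4.77 CPM in cKOt at ZT4, and 2.59 and 3.79 CPM in Ctrl and 5.4 and 4.97 CPM in cKOt at ZT16. The 4 cKOt libraries were all above the 4 Ctrl libraries, an order that 1.39% of the mRNAs tested over all nuclei showed. The difference was 1.13 ± 0.27 (log2, SE) at ZT4 (edgeR adjusted p = 0.163), 0.75 ± 0.27 at ZT16 (adjusted p = 0.691) and 0.94 ± 0.19 as the mean of both times (adjusted p = 0.0717). None passed the limit by this test. By DESeq2 the difference at ZT4 and the mean difference passed. In sums over all nuclei, more cells of a type with Cdkn1a and more Cdkn1a in each cell cannot be told apart. The summed T and NK cell markers moved with genotype in the same sums, 63.1 to 72.9 CPM in Ctrl and 40.6 to 53.9 CPM in cKOt, and their part in the result was not tested.

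In TAL-like nuclei the higher Cdkn1a of cKOt passed the test. The level was 0.706 and 0.390 CPM in Ctrl and 4.67 and 4.2 CPM in cKOt at ZT4, and 2.08 and 2.12 CPM in Ctrl and 3.55 and 3.09 CPM in cKOt at ZT16. These levels rest on 92 UMIs in all, 2 and 2 in the Ctrl libraries at ZT4 against 15 and 19 in cKOt, and 13 and 10 against 18 and 13 at ZT16. The difference was 3.05 ± 0.59 at ZT4 (edgeR adjusted p = 0.0253), a comparison that 0.569% of mRNAs passed, 0.66 ± 0.43 at ZT16 (adjusted p = 1.00) and 1.85 ± 0.37 as the mean of both times (adjusted p = 0.0216). The fitted size at ZT4 leans on the 4 Ctrl UMIs. In that comparison Cdkn1a met the minimum of 5 UMIs only through the cKOt group, where it was high. The interaction of genotype and time was -2.39 ± 0.76 (adjusted p = 0.997). The shares of TAL-like nuclei with a Cdkn1a UMI were 0.191%, 0.154%, 1.36%, 1.58%, 0.774%, 0.550%, 1.46% and 0.881%, and 2 of 510 Podo-like nuclei (0.392%) had one.

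The call at ZT4 was lost on leaving out any of the 4 ZT4 libraries (range 2.60 to 3.40) and by DESeq2 (adjusted p = 0.118). The mean call was lost on leaving out any library but cKOt ZT4 replicate 2 (range 1.63 to 2.03). TAL-like clusters 1, 6 and 15 had about the same shares in all groups, and cluster 1 held 48.7% to 56.0% of TAL-like nuclei. The summed PCT markers in TAL-like nuclei were 607, 649, 680.4, 653, 581, 514, 735 and 659.6 CPM, so all cKOt libraries lay above all Ctrl libraries (0.21 on the log2 scale). At ZT4, where 2 libraries stand against 2, more marker lists did not overlap, among them those of adipocytes (1.06 and 1.36 CPM in Ctrl against 3.74 and 12.4 in cKOt), MCD (86.5 and 52.2 against 170 and 95.8), CCD (59.6 and 54.5 against 71.7 and 74.0) and T and NK cells (166 and 158 against 97.8 and 131). Their part in the result was not tested.

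Cdkn1a was higher in all cKOt than in all Ctrl libraries also in PT-like and thinAL-like nuclei, an order that 1.84% of all mRNAs tested in the 19 types showed. In PT-like nuclei it was 1.28, 0.274, 3.72, 2.35, 1.43, 0.930, 3.07 and 1.82 CPM (278 UMIs), with a mean difference of 1.56 ± 0.40 and an adjusted p of 0.119. DESeq2 and edgeR without the filter on low counts called this difference. The PT-like nuclei of the 2 genotypes lay in different clusters. Cluster 14, with the most Cdkn1a, held 1.23% and 0.912% of those of Ctrl at ZT4 and ZT16 and 14.1% and 13.8% of those of cKOt. Cluster 9 held 0.221% and 0.298% against 13.7% and 23.8%, cluster 21 held 12.2% and 14.5% against 0.562% and 0.0147%, and clusters such as 24, 26 and 30 came almost wholly from 1 library each. The summed Mes/Per markers in PT-like nuclei were 58.7 to 78.0 CPM in Ctrl and 41.5 to 50.4 CPM in cKOt. The part that the make-up of the class and these markers have in differences between genotypes in PT-like nuclei was not tested. In thinAL-like nuclei Cdkn1a was 3.40, 0, 15.3, 7.39, 5.28, 6.63, 27.7 and 27.0 CPM, with a mean difference of 2.25 ± 0.53 and an adjusted p of 0.0592. Here, as in DCT1-like and UT-like nuclei below, Cdkn1a met the minimum of 5 UMIs only through cKOt groups, where it was high. CCD-like nuclei held 14 UMIs in all, too few to test, so the share of tested mRNAs above does not cover them. Their cKOt libraries also lay above their Ctrl libraries in CPM. That order is not set, since cKOt ZT4 replicate 2, cKOt ZT16 replicate 2 and Ctrl ZT16 replicate 1 held 1 UMI each. Among types in which the tubular Cre does not act, Vasc-like nuclei had 11.3, 10.6, 10.7, 10.3, 6.36, 12.7, 15.3 and 11.8 CPM and a difference of 0.21 ± 0.24 (adjusted p = 1.00), with overlapping genotypes. Mes/Per-like nuclei, which it also spares, had a difference of 1.82 ± 0.48 (adjusted p = 0.406), beside summed PCT markers of 624 to 852 CPM in Ctrl and 874 to 974 CPM in cKOt. In DCT1-like nuclei the difference was 1.43 ± 0.42 (adjusted p = 0.216). The highest mean, 25.1 ± 30.2 CPM in UT-like nuclei, is carried by cKOt ZT16 replicate 1 with 97.6 CPM from 45 nuclei, and the difference there was 0.77 ± 0.57 (adjusted p = 1.00). Jag2 (r = 0.832), Fbxl18 (0.797) and Fabp5 (0.790) were most like Cdkn1a across cell types.

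**Figure D4:**
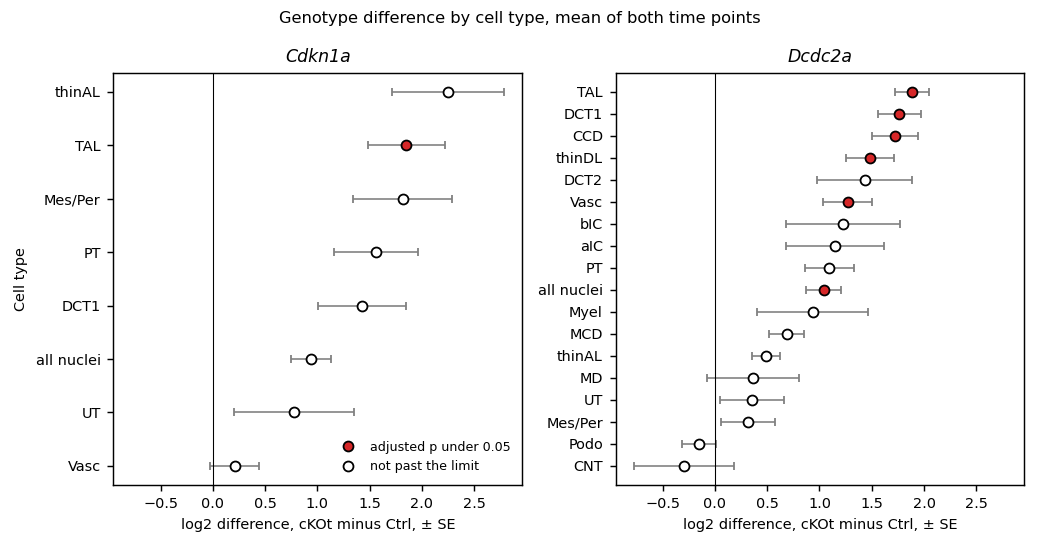
Mean genotype difference (cKOt against Ctrl, log2, with SE) of Cdkn1a and Dcdc2a by cell type, with the result over all nuclei. Cdkn1a is above 0 in TAL-like nuclei (1.85, the 1 type that passed), PT-like nuclei (1.56) and thinAL-like nuclei (2.25). Of the types that the Cre spares, Mes/Per-like nuclei stand at 1.82 and Vasc-like nuclei at 0.21. In thinAL-like, DCT1-like and UT-like nuclei Cdkn1a met the minimum of 5 UMIs only through cKOt groups, where it was high.

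In the tests over all nuclei, 0 of the 8 testable members passed in any of the 7 comparisons. The share of all tested mRNAs that passed was 0.446% for cKOt against Ctrl at ZT4, 0.174% at ZT16, 0.142% for ZT16 against ZT4 in Ctrl, 0.0% in cKOt, 0.949% for the mean genotype difference, 0.545% for the mean time difference and 0.0184% for the interaction. At an unadjusted p under 0.05, 2, 1, 2, 3, 1, 3 and 0 members stood in these comparisons, beside 8.88%, 6.11%, 9.96%, 8.33%, 10.0%, 13.7% and 4.35% of all mRNAs. DESeq2 called 1, 0, 1, 0, 1, 1 and 0, beside 2.17%, 1.07%, 1.47%, 1.03%, 2.64%, 3.2% and 0.312% of all mRNAs. The median log2 difference of the members was -0.07 for genotype and 0.35 for time, beside 0.00 and -0.01 over all mRNAs. Between 49 and 55 pairs of a member and a cell type could be tested, of which 1, 0, 0, 1, 2, 3 and 0 passed by edgeR, 11, 12, 14, 12, 15, 18 and 3 had an unadjusted p under 0.05, and 2, 0, 2, 1, 2, 5 and 0 passed by DESeq2. In the 19 cell types together 0.275%, 0.147%, 0.326%, 0.14%, 0.499%, 0.872% and 0.0261% of all mRNAs tested passed by edgeR, 6.04%, 5.28%, 7.99%, 6.98%, 6.6%, 10.2% and 4.22% had an unadjusted p under 0.05, and 0.35%, 0.231%, 0.421%, 0.232%, 0.553%, 0.86% and 0.0502% passed by DESeq2. The pairs come from few genes, each tested in several types, so their counts are not independent. The 7 passing results concern Cdkn1a and Spp1 in TAL-like, Vcam1 in Mes/Per-like and Clu in UT-like nuclei.

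Most members were rare in thinned nuclei, so few nuclei could hold 2 of them, and the rate for unrelated genes was not computed. With all nuclei thinned to 1000 UMIs, 319 of 80250 (0.398%) held at least 2 of them, and among PT-like nuclei 22 of 26031 (0.0845%). UT-like nuclei did so most often, 68 of 821 (8.28%), and DCT2-like nuclei in 40 of 1782 (2.24%). In DCT2-like nuclei Clu was found in 14% of nuclei with Spp1 and in 14% without it. In UT-like nuclei the shares were 12.3% and 5.69%, and Clu was the more frequent with Spp1 in 6 of 8 libraries. In PT-like nuclei they were 0.725% and 0.317%, from 8 nuclei with both, and Clu was the more frequent with Spp1 in 4 of 8 libraries.

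Lists of genes of the same processes were counted beside the members, and the genes named from them follow the rule given with the processing. Of 22 failed-repair and dedifferentiation genes, all tested over all nuclei, 2 rose and 0 fell in the mean genotype difference, in which 0.949% of all mRNAs passed (median -0.03, 10 of 22 above 0). At an unadjusted p under 0.05 there were 6, of which the other 4, Cxcl1 (-0.89), Il34 (-0.52), Vim (-0.45) and Anxa3 (-0.37), had lower estimates in cKOt. Dcdc2a, a doublecortin-domain gene that marks failed-repair proximal tubule, rose by 1.04 ± 0.17 (adjusted p = 0.0275). Itgb6, an integrin subunit that was chosen after its values were seen, rose by 0.71 ± 0.13 (0.0471), and by cell type in thinDL-like nuclei and in Mes/Per-like and Vasc-like nuclei, which the Cre spares. In PT-like nuclei Dcdc2a had a difference of 1.09 ± 0.23 that missed the limit (adjusted p = 0.0641). It rose in TAL-like nuclei, with 21.2, 12.9, 83.8, 129, 56.9, 61.8, 115 and 134 CPM and a mean difference of 1.88 ± 0.16 (adjusted p = 6.69e-06), in CCD-like nuclei (1.72 ± 0.22), in DCT1-like nuclei (1.76 ± 0.20) and in thinDL-like nuclei (1.48 ± 0.23), and also in Vasc-like nuclei (1.27 ± 0.23, adjusted p = 0.0439), where the Cre does not act and which are named here after their values were seen. All cKOt libraries were above all Ctrl libraries in TAL-like nuclei, an order that 1.84% of all mRNAs tested in the 19 types showed. The 4 calls in tubular types held without each library in turn. In the same comparison Cxcl1, a chemokine, fell in PT-like nuclei (-2.29) and Cdh6, a cadherin, fell in CNT-like nuclei (-1.76), both also chosen after their values were seen. In TAL-like nuclei Dcdc2a also rose from ZT4 to ZT16, by 1.05 ± 0.16 as the mean of both genotypes. Within Ctrl it rose by 1.87 ± 0.25 (edgeR adjusted p = 0.000905). The cKOt libraries overlapped between the times.

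**Figure D5:**
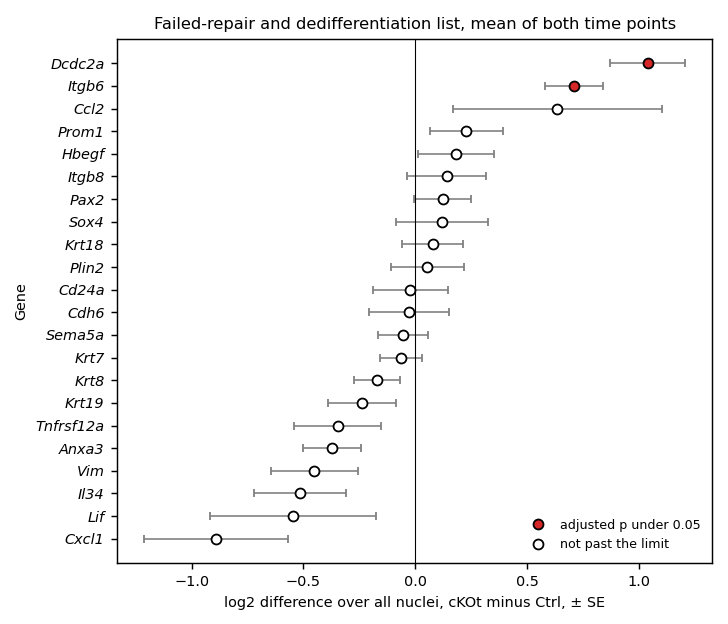
Mean genotype difference (cKOt against Ctrl, log2, with SE) over all nuclei of the 22 failed-repair and dedifferentiation genes, filled where the test passed. Dcdc2a (1.04) and Itgb6 (0.71) pass, and 10 of 22 lie above 0.

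Among the CDK inhibitors and partners, the genes that p21 acts with, 14 were tested over all nuclei and 0 passed edgeR's test of the mean genotype difference (median 0.01, 9 of 14 above 0), with 1 at an unadjusted p under 0.05 and 1, Ccnd1, called by DESeq2. By cell type, Cdk6, the kinase partner of D-type cyclins, rose in TAL-like nuclei from 56.5, 68.2, 48.5 and 57.0 CPM in Ctrl to 104, 110, 101 and 105 CPM in cKOt (0.86 ± 0.11, adjusted p = 0.000497). Ccnd1, cyclin D1, fell in PT-like nuclei, from 53.1, 54.4, 38.4 and 16.0 CPM in Ctrl to 6.87, 10.3, 9.30 and 7.50 CPM in cKOt (-2.14 ± 0.24, adjusted p = 0.00360). Both calls held without each library in turn, and the groups did not overlap in either. Of all mRNAs tested in the 19 types, 1.84% had all cKOt libraries above all Ctrl libraries and 1.65% had them below. The Ccnd1 call is subject to the different clusters that make up PT-like nuclei in the 2 genotypes, given above. Cdk6 also rose in alpha-intercalated-like nuclei (1.08 ± 0.24) and DCT1-like nuclei (0.89 ± 0.17), calls that were lost without 4 and 6 of the 8 libraries (ranges 0.89 to 1.21 and 0.76 to 1.03). From ZT4 to ZT16 Ccnd3 fell in PT-like nuclei (-0.83 ± 0.12) and TAL-like nuclei (-0.42 ± 0.10), Ccnd2 (-0.52 ± 0.11) and Cdk6 (-0.59 ± 0.09) in Vasc-like nuclei, and of these Cdk6 held without each library, while the others were lost without 7, 7 and 6 of the 8 in this order (ranges -0.92 to -0.75, -0.51 to -0.32 and -0.61 to -0.40). PT-like nuclei also lay in different clusters at the 2 times, with cluster 17 at 27.0% of those of Ctrl at ZT4 and 0.945% at ZT16, and cluster 5 at 7.19% of those of cKOt at ZT4 and 28.6% at ZT16.

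Of 16 p53 target genes, 0 passed edgeR's test of the mean genotype difference over all nuclei (median -0.04, 3 of 16 above 0), 0 had an unadjusted p under 0.05 and DESeq2 called 0. By cell type Fas, a death receptor, fell in CCD-like nuclei of cKOt (-2.12 ± 0.47) while Trp53inp1 fell from ZT4 to ZT16 in DCT1-like nuclei of Ctrl (-1.23 ± 0.24). The call of Fas was lost without each library but Ctrl ZT4 replicate 1 (-2.21 to -2.02), and that of Trp53inp1 without Ctrl ZT4 replicate 2 or either Ctrl library at ZT16 (-1.48 to -0.89). The same 3 counts were 0, 0 and 0 for 19 mitosis and replication genes (9 of 19 above 0), for 12 genes of the MYC and MAX network (7 of 12 above 0) and for 10 NF-kB response genes (3 of 10 above 0). Of the last list Relb fell from ZT4 to ZT16 in Vasc-like nuclei (-1.16 ± 0.15, held without each library) and in TAL-like nuclei (-0.99 ± 0.24, lost without 6 of the 8 libraries, -1.20 to -0.76). Of 17 receptors and binding partners of the members, 15 were tested and 1 rose over all nuclei in cKOt, Timd2, a TIM receptor of the KIM-1 family (0.67 ± 0.11, adjusted p = 0.0313, 7 of 15 above 0), a call that was kept only without cKOt ZT4 replicate 1 (0.59 to 0.75). Itga9, an integrin that binds osteopontin and VCAM-1, fell from ZT4 to ZT16 in TAL-like nuclei (-0.71 ± 0.19, lost without 5 of the 8 libraries, -0.92 to -0.52). Of the failed-repair list, time also moved Sema5a in Mes/Per-like nuclei (-0.66 ± 0.10, lost without 3 of the 8, -0.72 to -0.61) and Pax2 in CCD-like nuclei (0.41 ± 0.10, lost without any of the 8, 0.38 to 0.46).

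Adipocyte markers were counted as a sign of fat taken with the kidney. Of 6 genes 5 were tested over all nuclei at ZT4 and 2 rose in cKOt, Cidea (2.96 ± 0.41, edgeR adjusted p = 0.0238) and Ucp1 (adjusted p = 0.0376), which stood at 0.0997 and 0.0482 CPM in Ctrl and at 1.83 and 9.91 CPM in cKOt. In this comparison 0.446% of all mRNAs passed by edgeR. All 5 genes had an unadjusted p under 0.05 and DESeq2 called 5, beside 8.88% and 2.17% of all mRNAs. Ucp1 met the minimum of 5 UMIs only through the cKOt group, where it was high. Only 3 of the genes met it in the time comparison in Ctrl, so the filter had a part in these counts. The edgeR calls of Cidea and Ucp1 were lost without 3 and 6 of the 8 libraries, with adjusted p of up to 0.215 and 0.304. Adipo-like nuclei numbered 1, 2, 20, 35, 3, 0, 1 and 0. They held 0 Cdkn1a UMIs in 62 nuclei, which allows a share of up to 4.84%, so a level like that of other types was not detectable there.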

How the data were processed

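Frozen kidney sections with cortex and medulla gave the nuclei, which were gated on DAPI before they entered 10x 3′ v3.1 droplets. The authors processed the reads with bcl2fastq 2.20 and Cell Ranger 7.1.0 and deposited, for each library, UMI counts per feature and called barcode, not normalized. As reference, the methods name mm10 and the labels GRCm39. Whether intron reads counted is not stated in these sources. No coordinates were taken from these files, and promoters are RefSeq's on GRCm38.p6.

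A barcode needed 500 genes, 800 UMIs and no more than 2% mitochondrial UMIs (81391 of 82784 passed). Scrublet (scanpy 1.11.5, expected rate 8%) called 4367 doublets (5.37%), which were kept. Seurat 5.3.0 clustered mRNAs (2000 variable genes without the members among them, 1000 principal components, 20 neighbours, resolution 2.2) into 50 clusters. Clusters were named by a list of markers. The scoring rule (z averaging 0.6 or more, with 3 or more markers raised 2-fold and present in 10% of nuclei) and the merging of convoluted and straight proximal tubule into PT were set after the clusters had been seen. Cluster 42 was named Mes/Per although its podocyte score was higher, since it had too few podocyte markers.

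mRNA counts (82.7% of UMIs) were summed per library, and per cell type and library. Levels are CPM of these sums, means and SDs are over libraries, and no cell types were tested against each other. The tests were those of edgeR 4.0.16 (quasi-likelihood, TMM factors, 1 model of 4 groups over 8 libraries), run on mRNAs that reached 5 counts in both replicates of a compared group. P-values were adjusted by Benjamini-Hochberg within contrast and cell type, and the limit was 0.05. The SE of an edgeR difference was derived from its test, as the absolute log2 difference divided by the square root of F. It is therefore no separate measure of spread. The alternative tool was DESeq2 1.42.0. Shares of positive nuclei are given as descriptions and were not tested. The scripts were tested on simulated counts. The 2 samples of a group are separate mice and differed by more than sampling noise (ratio of chi-square to its degrees of freedom 35.0 to 61.7).

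The members and gene lists were chosen with earlier results of these data known. Named are the members, of each list up to 4 called genes with the smallest p per contrast, the 3 mRNAs most like each member among 13140 with at least 10 CPM in 1 type, and Arntl. Alternatives were other normalization (RLE), no filter, DESeq2, a replicate block, doublets removed, 50 principal components, thinning to 1000 UMIs, a minimum of 2 UMIs, each library left out in turn, and, added after seeing the data, sums without UT-like nuclei. Other software was Python 3.11.15 and R 4.3.3.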

Additional observations from a re-analysis of the deposited data

Results flagged for a closer look

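Nuclei outside the compared cell types held more of some members than any compared type did when its nuclei are pooled. The highest Cdkn1a was in a pair of unnamed clusters. Cluster 25, with 1176 nuclei led by Tbpl2, Sorcs3, Bst1, Nr2e3 and Plpp4, had 31.7 CPM (108 UMIs), and cluster 36, with 753 nuclei led by Ism1, Sorcs3, Plpp4, Kirrel3 and Uncx, had 50.3 CPM (101 UMIs), against 21.1 CPM in the highest compared type. Both had only 2 thin limb markers and so kept no name. In cluster 25 the libraries had 4.81, 7.28, 54.9, 37, 30.0, 37.9, 51.6 and 25.6 CPM, and in cluster 36 they had 43.4, 30.4, 56.2, 71.5, 34.5, 48.0, 63.5 and 47.9 CPM.

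Myc reached 16.4 CPM in cluster 36 (33 UMIs) and 9.66 CPM in cluster 43, the B cell-like nuclei (4 UMIs), against 6.15 CPM in the highest compared type. Havcr1 had 24.1 CPM in cluster 43, from 10 UMIs in 8 of 183 nuclei, against 1.59 CPM in the highest compared type. Its libraries had 16.4, 28.5, 0, 102, 14, 14.7, 0 and 31.2 CPM, so that Ctrl and cKOt overlapped. The B cell-like nuclei were led by Wdfy4, Pax5 and Bank1 together with Flt3, Tlr11 and Clec9a, which are genes of dendritic cells. They were not compared because cKOt ZT16 replicate 1 had 7 of them, fewer than the minimum of 10.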

How the results depend on the processing

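With 2 libraries a group, few results were firm. Over all nuclei, where 0 members passed, DESeq2 called 1 in each of the genotype comparison at ZT4, the time comparison in Ctrl, the mean genotype difference and the mean time difference, no filter called 1 in the mean genotype difference, and leaving out libraries called 0 to 0. By cell type, the members called in the genotype comparison at ZT4 (1) were 3 without the filter, 2 with the replicate block, 2 by DESeq2 and 0 with 50 principal components. At ZT16 (0) they were 2 without the filter, 1 with the block and 1 with 50 components, and for time in Ctrl (0) they were 4, 1 and 1, and 2 by DESeq2. For time in cKOt (1) they were 5 without the filter. For the mean genotype difference (2) they were 7 without the filter and 7 with the replicate block, for the mean time difference (3) they were 12 without the filter and 5 by DESeq2, and for the interaction (0) they were 1 without the filter. With 50 components TAL-like nuclei were not compared. Without single libraries the counts ran from 0 to 2, 0 to 1, 0 to 1, 0 to 1, 0 to 8, 0 to 5 and 0 to 0 in this order, and the counts of 8 and 5 came without cKOt ZT4 replicate 2. Of the 7 member calls, RLE, no filter and removing doublets kept 7, DESeq2 kept 5, lost Cdkn1a in TAL-like nuclei at ZT4 and gave no adjusted p for its mean difference there, the block lost Clu in UT-like nuclei (adjusted p = 0.0781), and of 56 repeats without a library 32 lost the call, each with the sign kept. Samples share no more than a replicate number by the labels: deviations of equal numbers correlated at 0.43 between the genotypes at each time and at 0.20 between the times in cKOt, but at -0.26 to -0.02 in the other 3 pairs of groups, so the numbers were not taken to pair mice. The leading cell type by share of positive nuclei was the same for 4 of 9 members after thinning and for 5 of 9 at a minimum of 2 UMIs. The changes above beyond those named have causes that were not tested. No result that passed in the main setting or in the alternative changed sign, and the signs of other values were not compared. Without UT-like nuclei, 66 of 66 values over all nuclei kept their side of the limit. Depth limits Krt20, Havcr1, Lcn2 and Sox9 most, for which a difference was mostly not detectable.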

Other observations

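Members were also found in small clusters of the Mes/Per-like and Vasc-like classes. Mes/Per-like cluster 42, with 308 nuclei, had 352 CPM of Spp1, 62.7 CPM of Clu and 50.1 CPM of Vcam1. Its podocyte score was higher than its Mes/Per score, so the type of these nuclei is not set. Vasc-like cluster 32, with 866 nuclei led by Lef1, Lgr5 and Slc14a1, had 40.2 CPM of Clu, against a pooled 11.3 CPM over all Vasc-like nuclei. In PT-like nuclei Cdkn1a was 5.02 CPM in cluster 14 and 1.92 CPM over all of them. These clusters were found with the same nuclei, so the values are descriptions without a test.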
